A study of Mus musculus with 6 samples.

Results

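Fibronectin and the integrin subunits of muscle cells were followed through myoblast differentiation, with and without 4-phenylbutyric acid (4-PBA). The 10 genes were Fn1, Itga3, Itga4, Itga5, Itga6, Itga7, Itgav, Itgb1, Itgb3 and Itgb5, taken by symbol from a table of 43074 genes. All 10 were found and passed the filter on low counts, as did 17433 genes in total. The choice of genes used no measured value of theirs, but it was made with earlier results of these libraries known.

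The cells were C2C12, an immortal mouse myoblast line labelled wild type, which exits the cell cycle and fuses into myotubes when serum is changed. Day 0 cells were untreated, and the line was kept in medium with 10% fetal bovine serum. Day 4 cells had spent 4 days in differentiation medium with 5% horse serum, with either DMSO or 1 mM 4-PBA, a small aromatic fatty acid used both to ease protein folding and to inhibit histone deacetylases. Total RNA was sequenced as 2 libraries in each of 3 groups, all with batch number 1. The groups share the same line, and the labels do not say whether the 2 libraries of a group came from separate cultures, so the p-values measure only the spread between these libraries. As a model, this is 1 line in culture, with no fibres, nerves or other cell types of muscle.

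Fibronectin is a secreted glycoprotein that cells assemble into fibrils, and its RGD sequence is the site that several integrins bind. Integrins are receptors of 1 alpha and 1 beta subunit that link the matrix to the actin cytoskeleton. The alpha subunit largely sets the ligand: Itga5 with Itgb1 forms the classical fibronectin receptor, Itga4 binds another stretch of fibronectin and the cell surface protein Vcam1, Itga3, Itga6 and Itga7 form laminin receptors, and Itgav pairs with Itgb1, Itgb3, Itgb5, Itgb6 or Itgb8 to bind RGD ligands. In muscle, the laminin receptor of Itga7 and Itgb1 is known for anchoring fibres to their basement membrane.

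Libraries held 47908926 to 74697397 counts. Levels are given as CPM, counts scaled to a common library total and by TMM (a scaling that equalises libraries by their typical gene), or, between genes, as RPKM, the CPM per kilobase of exon. Of the 8 myoblast and myotube markers, all had counts in each group; their summed level was 1105 to 1111 CPM at day 0, 6747 to 6986 CPM with DMSO and 6516 to 6622 CPM with 4-PBA. Markers of adipocytes, osteoblasts, endothelium, leukocytes, epithelium and Schwann cells, 3 for each, summed to at most 4.01 CPM in any library, and the Schwann cell marker Sox10 was at 0 throughout. These are bulk libraries, so fewer cells expressing a gene and less RNA per cell cannot be told apart.

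Fn1 was the most abundant of the 10 transcripts and roughly doubled its share of the RNA with differentiation. It stood at 4795 and 4808 CPM at day 0, 10570 and 9965 CPM in DMSO, while 4-PBA libraries had 8799 and 8946 CPM. Every day 4 library lay above both day 0 libraries, and both 4-PBA libraries lay below both DMSO libraries. Fn1 took 0.484% to 0.486% of all counts at day 0 and held rank 4 among all genes by count. With DMSO it took 0.990% to 1.05% and ranked 1, and with 4-PBA it took 0.879% to 0.891% and ranked 2. Against day 0, Fn1 rose 2.14-fold with DMSO (log2 fold change 1.10, SE 0.026, edgeR adjusted p 3.69e-28).

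**Figure D1:**
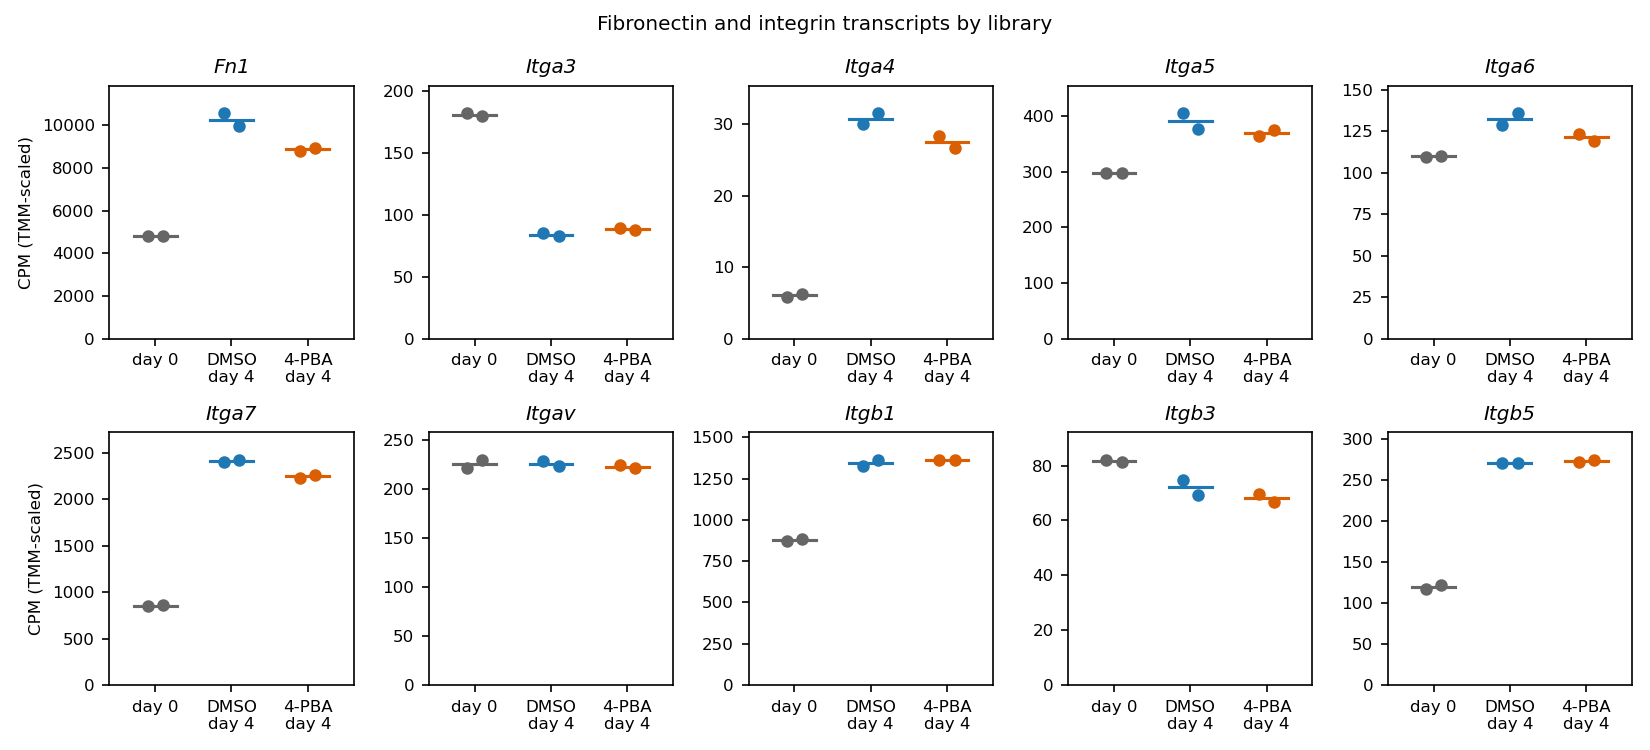
Expression of the 10 genes in each library, in TMM-scaled CPM on axes that start at 0; points are libraries and bars are group means of 2 libraries. Fn1 reads 4795 and 4808 CPM at day 0 against 9965 and 10570 CPM with DMSO, while Itgav lies at 221 to 230 CPM in all 6 libraries.

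Between DMSO at day 4 and day 0, 7 of the 10 genes rose and 2 fell by edgeR's quasi-likelihood test (adjusted p under 0.05 over all genes). Over all tested genes 66.3% were called, 33.8% higher and 32.6% lower, so a call as such was the usual outcome of this comparison. The median log2 fold change of the 10 genes was 0.50, against 0.023 over all tested genes. Both DMSO libraries lay outside the range of the day 0 libraries for 9 of the 10 genes, as they did for 81.9% of all tested genes. Of the 9, 7 lay higher and 2 lower, against 42.0% and 39.9% of all tested genes.

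Among the alpha subunits of fibronectin receptors, Itga4 and Itga5 both rose, by very different amounts, while Itgav, which binds RGD ligands, was not called. Itga4 was barely expressed at day 0, at 5.86 and 6.25 CPM, and reached 30.0 and 31.6 CPM in DMSO against 28.3 and 26.6 CPM in 4-PBA. That was the largest rise among the 10 genes, 5.06-fold with DMSO (log2 fold change 2.34, SE 0.078, edgeR adjusted p 3.42e-24). Itga5, the alpha subunit of the classical fibronectin receptor, had 299 and 298 CPM at day 0, 406 and 377 CPM in DMSO, while 4-PBA libraries had 365 and 376 CPM. Its rise was 1.31-fold with DMSO (log2 fold change 0.39, SE 0.033, edgeR adjusted p 1.71e-12), with all 4 day 4 libraries above both day 0 libraries.

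The laminin-binding alpha subunits did not move together. Itga7, the alpha subunit of the main laminin receptor of muscle fibres, stood at 849 and 861 CPM at day 0, 2399 and 2426 CPM in DMSO, while 4-PBA libraries had 2232 and 2264 CPM. It rose 2.82-fold with DMSO (log2 fold change 1.496, SE 0.026, edgeR adjusted p 2.57e-32). Itga6, a subunit of laminin receptors on many cell types, had 109 and 110 CPM at day 0, 129 and 136 CPM in DMSO, while 4-PBA libraries had 124 and 119 CPM. Its rise with DMSO was 1.21-fold (log2 fold change 0.27, SE 0.036, edgeR adjusted p 4.49e-08). Itga3, another laminin receptor subunit, went the other way. It had 182 and 180 CPM at day 0, 85.6 and 82.6 CPM in DMSO, while 4-PBA libraries had 89.4 and 87.9 CPM. The log2 fold change of Itga3 with DMSO was -1.11 (SE 0.036, edgeR adjusted p 1.27e-24), which left 0.464 times the day 0 level.

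Itgav showed no called change. It stood at 222 and 230 CPM at day 0, 229 and 223 CPM in DMSO, while 4-PBA libraries had 224 and 221 CPM, so the groups overlapped. Its log2 fold change between DMSO and day 0 was -0.00057, with a 95% interval from -0.065 to 0.064 (edgeR adjusted p 0.989), and its sign changed when single libraries were left out.

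Of the beta subunits, Itgb1 and Itgb5 rose and Itgb3 fell with DMSO. Itgb1, the partner of most alpha subunits, had 874 and 883 CPM at day 0, 1327 and 1365 CPM in DMSO, while 4-PBA libraries had 1364 and 1361 CPM. It rose 1.53-fold with DMSO (log2 fold change 0.62, SE 0.027, edgeR adjusted p 9.97e-21). Itgb5, which pairs with Itgav in a vitronectin receptor, had 117 and 122 CPM at day 0, 271 CPM in each DMSO library, and 273 and 275 CPM with 4-PBA. It rose 2.27-fold with DMSO (log2 fold change 1.18, SE 0.032, edgeR adjusted p 8.80e-27), while its partner Itgav was not called. Itgb3, the other well-known partner of Itgav, had 82.2 and 81.2 CPM at day 0, 74.9 and 69.4 CPM in DMSO, while 4-PBA libraries had 69.5 and 66.9 CPM. Its log2 fold change with DMSO was -0.18 (SE 0.043, edgeR adjusted p 4.50e-04).

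**Figure D2:**
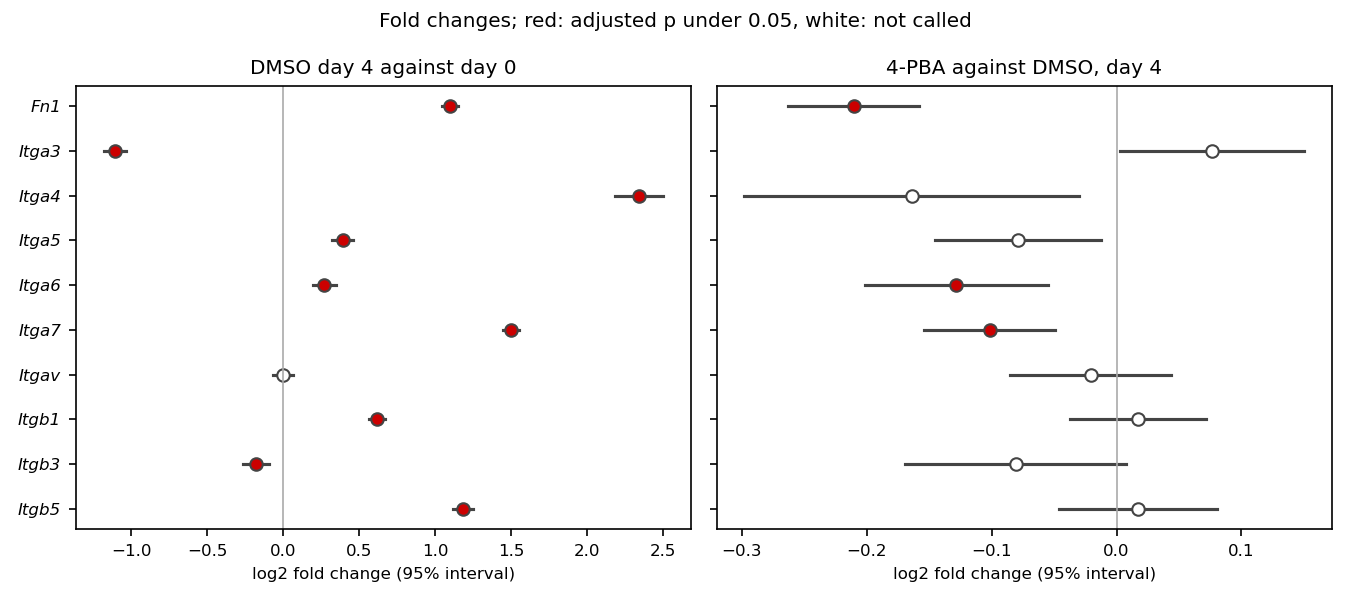
Log2 fold changes of the 10 genes with 95% intervals, for DMSO at day 4 against day 0 (left) and 4-PBA against DMSO at day 4 (right, on a narrower axis); red points passed an adjusted p of 0.05 and white points did not. On the left the values run from -1.11 for Itga3 to 2.34 for Itga4, and on the right from -0.21 for Fn1 to 0.076 for Itga3.

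By GENCODE M21, 4 of the genes share exon sequence with an antisense neighbour, and whether counting used strand is not given in the sources used here. These neighbours had few counts in every library. Apol7d, opposite Fn1, had 41 to 80, and Cerkl, opposite Itga4, had 13 to 31. Mettl7b, opposite Itga7, had 0 to 5, and Gm13684, opposite Itgav, had 1 to 12.

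Promoter sequence was matched by symbol in RefSeq (GRCm38.p6) for 6 of the 10 genes; Fn1, Itga6, Itga7 and Itgb3 had no entry there. The 250 bases before the transcription start are shown for 4 genes that span the responses to differentiation: Itga4 and Itgb5, which rose more than any other of the 6, Itga3, which fell, and Itgav, which was not called. They lie at chr2:79255176-79255425 (+ strand), chr16:33829415-33829664 (+ strand), chr11:95076715-95076964 (- strand) and chr2:83724147-83724396 (+ strand), each read 5′ to 3′ toward the gene, with matches to the motifs named after them in capitals.
Itga4: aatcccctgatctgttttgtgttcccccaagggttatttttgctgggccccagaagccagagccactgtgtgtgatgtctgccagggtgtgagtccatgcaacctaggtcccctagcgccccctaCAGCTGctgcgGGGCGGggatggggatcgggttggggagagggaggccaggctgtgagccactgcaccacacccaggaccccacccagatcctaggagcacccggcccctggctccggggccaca
Itgb5: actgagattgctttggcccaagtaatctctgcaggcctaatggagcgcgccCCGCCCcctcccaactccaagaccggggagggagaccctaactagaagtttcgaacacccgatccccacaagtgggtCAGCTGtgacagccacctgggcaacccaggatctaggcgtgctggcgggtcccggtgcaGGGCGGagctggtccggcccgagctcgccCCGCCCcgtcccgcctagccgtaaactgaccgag
Itga3: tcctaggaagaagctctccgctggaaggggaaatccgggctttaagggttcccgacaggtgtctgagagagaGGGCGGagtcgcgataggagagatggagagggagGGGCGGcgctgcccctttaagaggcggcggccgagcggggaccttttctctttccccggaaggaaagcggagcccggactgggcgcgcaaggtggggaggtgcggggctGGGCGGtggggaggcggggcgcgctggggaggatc
Itgav: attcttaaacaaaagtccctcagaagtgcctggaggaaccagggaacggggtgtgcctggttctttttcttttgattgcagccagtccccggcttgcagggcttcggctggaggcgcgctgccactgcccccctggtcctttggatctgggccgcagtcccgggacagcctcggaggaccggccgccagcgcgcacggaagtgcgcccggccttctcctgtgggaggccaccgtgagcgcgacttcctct

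The motifs searched on both strands were CAGCTG (a form of the E-box of myogenic factors) and GGGCGG (the Sp1 box). Also searched were TGACGTCA (the cyclic AMP response element), TGANTCA (AP-1), GCGNGGGCG (Egr-1) and the NF-κB site. A GGGCGG can overlap a GCGNGGGCG. Across 7 windows of the 6 genes (Itga3 has 2), CAGCTG occurred in 2, those of Itga4 and Itgb5. It occurred in 13% of all 32851 windows of that length. In Itga4 it starts 125 bases before the transcription start, and in Itgb5 122 bases before it. Other forms of the E-box were neither searched nor put in capitals. A window without CAGCTG, such as those of Itga3 and Itgav, is therefore not shown to lack an E-box. GGGCGG occurred in 6 of the 7 windows, all but that of Itgav, and in 32.7% of all windows. The windows shown have a GC content of 64.0% to 67.6%, above the median of 52.4% over all windows. Among those not shown, the second window of Itga3 has 50.8%, that of Itga5 55.6% and that of Itgb1 68%. The other 4 motifs had no match in the 7 windows, and occurred in 1.55% (TGACGTCA), 6.75% (TGANTCA), 4.70% (GCGNGGGCG) and 0.356% (the NF-κB site) of all windows. A match describes the letters only, not a bound site.

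Per exon length, the order of the 10 genes showed a matrix gene and 2 receptor subunits above the rest. At day 0 the level was 411 ± 0.796 RPKM for Fn1, 215 ± 1.59 RPKM for Itgb1 and 106 ± 1.05 RPKM for Itga7 (SD, n = 2). Itga5 followed at 60.5 ± 0.0732 RPKM, Itgb5 at 33.6 ± 0.895 RPKM and Itga3 at 31.7 ± 0.297 RPKM. Lower still were Itgav at 21.1 ± 0.539 RPKM, Itgb3 at 13.8 ± 0.122 RPKM, Itga6 at 12.2 ± 0.0713 RPKM and Itga4 at 0.433 ± 0.0197 RPKM.

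With DMSO, Fn1 reached 879 ± 36.6 RPKM, Itgb1 330 ± 6.49 RPKM and Itga7 298 ± 2.42 RPKM. Itga5 at 79.3 ± 4.23 RPKM and Itgb5 at 76.2 ± 0.0984 RPKM did not differ beyond their spread, and neither did Itga3 at 14.7 ± 0.363 RPKM and Itga6 at 14.7 ± 0.542 RPKM. Itgav had 21.1 ± 0.381 RPKM, Itgb3 12.2 ± 0.652 RPKM and Itga4 2.20 ± 0.0801 RPKM. Itga3, above Itgav at day 0, stood below it with DMSO. With 4-PBA, Itgb5 at 77.2 ± 0.476 RPKM stood above Itga5 at 75.1 ± 1.71 RPKM, and the other genes kept the order they had with DMSO. The order of some neighbours depended on the length used. Per length of the longest transcript, Itga7 with DMSO stood at 600.1 RPKM, above Itgb1 at 353 RPKM. By that length Itga6 and Itga3 with DMSO were not alike, at 30.8 ± 1.13 RPKM and 17.3 ± 0.426 RPKM. Itga5 and Itgb5 by that length had 88.6 ± 4.73 RPKM and 82.5 ± 0.107 RPKM with DMSO. With 4-PBA they had 83.9 ± 1.91 RPKM and 83.5 ± 0.516 RPKM, so Itgb5 did not stand above Itga5.

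As shares of all alpha subunit transcripts, the make-up of the pool shifted toward Itga7. Over the 15 alpha genes tested, Itga7 made up 45.1% and 45.3% of the summed RPKM at day 0, 67.0% and 68.1% under DMSO, against 66.7% and 66.8% under 4-PBA. The share of Itga5 was 26.0% and 25.7% at day 0, 18.6% and 17.3% under DMSO, against 17.9% and 18.2% under 4-PBA, although its own level had risen. That of Itga3 was 13.6% ± 0.208 at day 0 and 3.34% ± 0.0675 with DMSO, and that of Itgav 9.003% ± 0.177 and 4.77% ± 0.0653 (SD, n = 2). Itga6 went from 5.21% ± 8.21e-04 to 3.33% ± 0.137, and Itga4, in spite of its large fold change, only from 0.185% ± 0.00731 to 0.499% ± 0.0204. Per length of the longest transcript, the share of Itga5 with DMSO was 11.3% and that of Itga7 76.5%, so the sizes of the shares depend on the gene model while the gain of Itga7 was present with both.

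Among 8 beta genes tested, Itgb1 held a nearly fixed share, 77.1% ± 0.102 at day 0, 77.8% ± 0.461 with DMSO and 78.0% ± 0.0574 with 4-PBA. Around it, Itgb5 went from 12.03% ± 0.248 at day 0 to 18.0% ± 0.270 with DMSO, and Itgb3 from 4.96% ± 0.0738 to 2.89% ± 0.194. Itgb7, a subunit best known from lymphocytes, held 5.11% ± 0.274 at day 0 and 0.132% ± 0.00809 with DMSO. With 2 libraries against 2, no relabelling of libraries gives a p-value under 0.333, so the shares are a description.

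**Figure D3:**
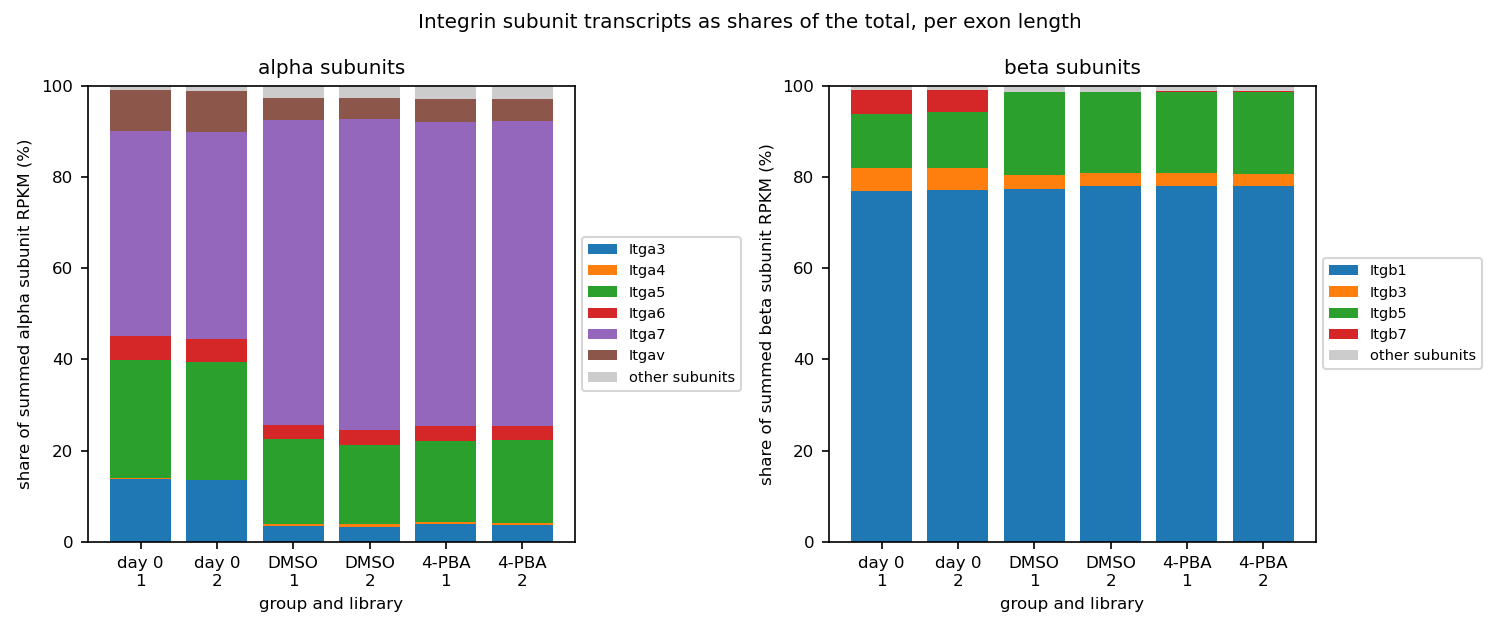
Share of each subunit in the summed RPKM of all tested alpha genes (left) and beta genes (right), in percent, with 1 stacked bar per library and the remaining subunits in grey. Itga7 takes 45.1% and 45.3% of the alpha total at day 0 and 66.7% to 68.1% at day 4, and Itgb1 takes 76.99% to 78.1% of the beta total in all 6 libraries.

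Between 4-PBA and DMSO at day 4, 3 of the 10 genes fell and none rose, against 4.90% of all tested genes called, 2.78% lower and 2.13% higher. The 3 were Fn1, Itga6 and Itga7, and the changes were small. The median log2 fold change of the 10 genes was -0.080, against 0.0021 over all tested genes, and 6 of the 10 had an unadjusted p under 0.05, as did 2908 of the 17433 tested genes. Both 4-PBA libraries lay below both DMSO libraries for 5 of the 10 genes and above them for 2, against 22.5% and 23.0% of all tested genes, or 45.5% in either direction.

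Fn1 differed most. Its level in 4-PBA was 0.864 times that with DMSO (log2 fold change -0.21, SE 0.026, 95% interval -0.26 to -0.16, edgeR adjusted p 1.83e-06). It was lower in each of the 2 libraries, and stayed called when any 1 library was left out, with a log2 fold change between -0.25 and -0.17.

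Of the laminin receptor subunits, Itga7 in 4-PBA was 0.932 times its DMSO level (log2 fold change -0.10, SE 0.026, 95% interval -0.15 to -0.049, edgeR adjusted p 0.0138). Itga6 was 0.915 times its DMSO level (log2 fold change -0.13, SE 0.036, 95% interval -0.20 to -0.055, edgeR adjusted p 0.0303). Both were lower in each 4-PBA library than in either DMSO library. The call of Itga7 was lost without 4-PBA replicate 1 (adjusted p 0.326) or 4-PBA replicate 2 (0.186), in a range over all alternatives from 2.97e-04 to 0.326. That of Itga6 was lost without any single library other than DMSO replicate 1, when DMSO and 4-PBA libraries were fitted without day 0 (adjusted p 0.0508) and with the DESeq2 Wald test (0.0631), in a range from 0.00116 to 0.385. Itga3, the third of this type that was measured, was not called, with a log2 fold change of 0.076 (95% interval 0.0025 to 0.15, edgeR adjusted p 0.278) and both 4-PBA libraries above both DMSO libraries.

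Itga4 and Itga5, which form fibronectin receptors, were not called. Itga4 had a log2 fold change of -0.16 (95% interval -0.30 to -0.030, edgeR adjusted p 0.169), the widest interval of the 10 genes and at the lowest expression. Itga5 had -0.079 (95% interval -0.15 to -0.013, edgeR adjusted p 0.189), and its groups were apart only by 376.4 against 376.6 CPM. Without DMSO replicate 2 Itga5 stood at -0.13 and was called (adjusted p 0.00218, where other alternatives ran to 0.791), and without DMSO replicate 1 it stood at -0.024.

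The remaining subunits had intervals that included 0. Itgb1 had a log2 fold change of 0.017 (95% interval -0.037 to 0.072) and turned to -0.0035 without DMSO replicate 1. Itgb5 had 0.017 (-0.046 to 0.081) and Itgav -0.021 (-0.085 to 0.044). Itgb3 had -0.081 (-0.17 to 0.0077). For these 4 genes the edgeR adjusted p ran from 0.361 to 0.860, and an uncalled difference does not show that the levels are alike.

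Markers of the differentiation state were also read in these groups, as levels without a test. Summed over the 4 cycling markers Mki67, Top2a, Ccnb1 and Cdk1, the level was 360 to 426 CPM with DMSO and 450 to 461 CPM with 4-PBA, against 1333 to 1358 CPM at day 0. The 2 DMSO libraries lay further apart than the nearest DMSO and 4-PBA libraries, and DMSO replicate 2 was the lower. The summed myoblast and myotube markers were lower with 4-PBA in both libraries, as given at the start, but not each of them. Des, Mymk, Ckm and Acta1 were lower in both 4-PBA libraries than in either DMSO library, while Myod1, Myog and Myh3 overlapped. Myf5 was higher by a narrow margin, at 23.15 and 24.5 CPM against 23.06 and 22.6 CPM with DMSO. Over all tested genes, both 4-PBA libraries lay below both DMSO libraries for 22.5% and above them for 23.0%. The part of these markers in the differences of Fn1, Itga6 and Itga7 was not tested.

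Against day 0, the 4-PBA cells showed the same 7 genes higher and the same 2 lower as the DMSO cells, with 65.6% of all tested genes called, 33.2% higher and 32.4% lower. The groups were apart for 9 of the 10, 7 higher and 2 lower, against 81.8% of all tested genes, 41.7% higher and 40.1% lower. Both comparisons use the same day 0 libraries, so the values are set side by side only. The log2 fold change with 4-PBA was 0.89 for Fn1, where DMSO gave 1.10. For the alpha subunits it was 2.18 for Itga4 (DMSO 2.34), 0.31 for Itga5 (0.39), 0.14 for Itga6 (0.27), 1.39 for Itga7 (1.496), -1.03 for Itga3 (-1.11) and -0.021 for Itgav (-0.00057). For the beta subunits it was 0.63 for Itgb1 (DMSO 0.62), 1.20 for Itgb5 (1.18) and -0.26 for Itgb3 (-0.18). The direction of every called gene was the same with and without the drug.

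A list of 18 other integrin genes was read beside these. Of them 14 passed the filter, and Itga2, Itgam, Itgax and Itgb2l did not, with at most 6 counts in any library. With DMSO against day 0, 7 rose, 4 fell and 3 were not called, against 33.8% higher and 32.6% lower over all tested genes. The 14 had a median log2 fold change of 0.82. Itgb7 changed most, from 40.8 and 38.2 CPM at day 0 to 1.60 and 1.496 CPM with DMSO (log2 fold change -4.67, SE 0.10). Itga11 and Itga10, the alpha subunits of collagen receptors, rose from 3.08 to 29.6 CPM and from 3.39 to 22.2 CPM on average (log2 fold changes 3.27 and 2.72). In GENCODE M21, 33.5% of the exon length of Itga10 overlaps Gm42957 on the same strand, so its value is uncertain to that extent.

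Between 4-PBA and DMSO, 1 of these 14 rose and 1 fell, against 2.13% and 2.78% of all tested genes. Itgb6, a partner of Itgav in a receptor that activates latent TGF-β, had 22.8 and 22.5 CPM in DMSO against 18.4 and 18.7 CPM in 4-PBA (log2 fold change -0.29, SE 0.074, edgeR adjusted p 0.0144). Itgb8, another such partner of Itgav, had 15.3 and 16.4 CPM in DMSO against 19.4 and 18.6 CPM in 4-PBA (log2 fold change 0.26, SE 0.077, edgeR adjusted p 0.0400). The call of Itgb6 was lost without either 4-PBA replicate (adjusted p 0.159 and 0.109, in a range from 0.00513). That of Itgb8 was lost without any single library other than DMSO replicate 2, with a replicate block (adjusted p 0.0556) and with the DESeq2 Wald test (0.0820), in a range from 0.0267 to 0.306. Itga11 was not called (0.15, adjusted p 0.186).

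Inside the cell, integrin tails are held by talin, kindlin, the Ilk-parvin complex, paxillin and their partners. Of 38 such genes 37 were tested. With DMSO against day 0, 23 rose and 12 fell, against 33.8% and 32.6% of all tested genes. The 37 had a median log2 fold change of 0.22. Where a called gene reached 5 CPM in DMSO or at day 0, the 3 largest changes were those of Itgb1bp2, Tln2 and Flnc. Itgb1bp2, which encodes the beta1 tail-binding protein melusin of striated muscle, rose from 1.77 and 1.69 CPM to 53.4 CPM in each DMSO library (log2 fold change 4.95). Tln2, a talin of muscle attachment sites, rose from 77.6 to 181 CPM and Flnc, the muscle filamin, from 622 to 1281 CPM on average (log2 fold changes 1.22 and 1.04). Below that level, Fermt3, the kindlin of blood cells, fell from 2.06 and 2.36 CPM to 0.285 and 0.512 CPM (log2 fold change -2.45, SE 0.31, edgeR adjusted p 1.17e-08); it was named after its values were seen.

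Between 4-PBA and DMSO, 6 of these 37 genes fell and 1 rose, against 2.78% and 2.13% of all tested genes. The other 30 were not called, and the median log2 fold change of the 37 was -0.030. Parvb, a parvin of the Ilk complex, had 180 and 165 CPM in DMSO and 147 CPM in each 4-PBA library (log2 fold change -0.23, SE 0.035, edgeR adjusted p 6.42e-05). Tns1, a tensin that links integrin tails to actin, was lower (-0.16, SE 0.030, adjusted p 9.36e-04), and so was Itgb1bp2 (-0.18, SE 0.053, adjusted p 0.0370). Csrp1, a LIM protein of actin bundles, was the 1 that rose (0.19, SE 0.033, adjusted p 2.54e-04). The 6 calls became 2 without DMSO replicate 1, 2 and 1 without 4-PBA replicates 1 and 2, and 3 without either day 0 replicate, with the DESeq2 Wald test, in a fit of the 4 libraries compared and with a replicate block. Itgb1bp2 lost its call in 8 of 16 alternatives, with adjusted p-values up to 0.405.

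**Figure D4:**
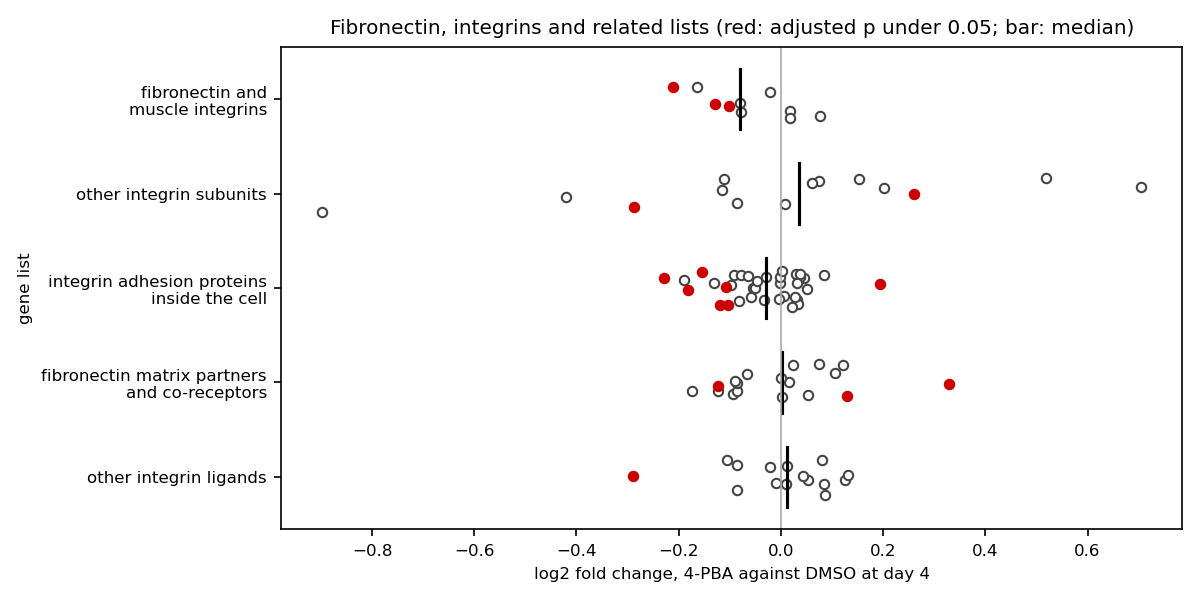
Log2 fold change between 4-PBA and DMSO at day 4 for each tested gene of the 10 and of 4 related lists; red points passed an adjusted p of 0.05, white points did not, and bars are medians. The medians are -0.080 for fibronectin and the muscle integrins, 0.035 for other subunits, -0.030 for adhesion proteins, 0.0016 for matrix partners and 0.011 for other ligands.

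The matrix partners and co-receptors of fibronectin were all called with DMSO against day 0, 9 of 18 higher and 9 lower. Over all tested genes 66.3% were called, 33.8% higher and 32.6% lower. Fbn1, the microfibril protein fibrillin-1 (log2 fold change 2.22), and Tgm2, a transglutaminase that crosslinks fibronectin (2.41), rose, and Plaur, the urokinase receptor, fell (-2.41). On the opposite strand, Gm9913 overlaps 20.1% of the exon length of Fbn1, and Gm20412 and Rprd1b overlap 13.7% and 8.03% of that of Tgm2. Between 4-PBA and DMSO, 2 rose and 1 fell, against 2.13% and 2.78% of all tested genes. The other 15 were not called, and the median of the 18 was 0.0016. Fbln1, a fibulin that binds fibronectin fibrils, had 21.0 and 19.9 CPM in DMSO against 26.1 and 25.3 CPM in 4-PBA (log2 fold change 0.33, SE 0.057, edgeR adjusted p 2.87e-04). Sdc2, a heparan sulfate co-receptor, was higher (0.13, SE 0.028, adjusted p 0.00437), and Cd44, a hyaluronan receptor, lower (-0.12, SE 0.029, adjusted p 0.00774). Without DMSO replicate 2 the number that fell was 6, and without DMSO replicate 1 it was 2 with 4 higher; without 4-PBA replicate 1, or without 4-PBA replicate 2, 1 gene rose and 0 fell. Looser filtering and limma-voom each gave 3 that fell, and the strict filter 2.

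Of the other integrin ligands 15 of 19 were tested. With DMSO 11 rose and 2 fell, against 33.8% and 32.6% of all tested genes. The 15 had a median log2 fold change of 0.67. Postn, the matricellular protein periostin, rose from 11.8 and 14.4 CPM to 248 and 249 CPM (log2 fold change 4.22), and Lama4 (2.04) and Ccn2 (1.99) rose less; 23.2% of the exon length of Ccn2 overlaps Gm15270 on the opposite strand. Between 4-PBA and DMSO 1 fell, 0 rose and 14 were not called, against 2.78% lower and 2.13% higher over all tested genes. The 1 that fell was Spp1, the RGD protein osteopontin. It stood at 2423 and 2456 CPM at day 0, 1024 and 957 CPM in DMSO, while 4-PBA libraries had 793 and 828 CPM. Its log2 fold change between 4-PBA and DMSO was -0.29 (SE 0.030, edgeR adjusted p 3.03e-07), larger in size than that of Fn1, and 18.8% of its exon length overlaps Gm42793 on the same strand. The count of falling ligands was 3 without DMSO replicate 1, with 2 higher, and 2 without DMSO replicate 2, with either other filter and with limma-voom. Lama2 and Npnt, the next by adjusted p, were not called (-0.11 and -0.087).

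The genes whose profile over the 6 libraries lay closest to that of Fn1 were Sv2b, Zfp568 and Prune2. Closeness was the root mean square distance of log2 CPM centred on each gene's mean, among 10680 genes with a mean of at least 5 CPM. The distances were 0.030, 0.032 and 0.039, where 0 is the same profile. For Itga7 the closest were Nav2 (0.020), Cdh13 (0.028) and Fgf2 (0.031). No other member was among these 6 genes, and with 6 libraries the distances mostly reflect the contrast of day 4 with day 0.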

How the data were processed

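The deposited values are raw counts per gene symbol from 6 libraries, neither normalised nor pooled. The build is GRCm39, per the submitters' processing notes; aligner, counter, annotation and strand setting are not given in the sources used here. GENCODE M21 (GRCm38) supplied exon lengths and overlaps; its symbols matched 16469 of 17433 tested genes and all 10 members.

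Counts were fitted with edgeR 4.0.16 (R 4.3.3): filterByExpr, TMM, 1 mean per group over 6 libraries, robust glmQLFit with 3 residual degrees of freedom, two-sided quasi-likelihood tests, Benjamini-Hochberg adjustment across the 17433 genes, and calls at an adjusted p under 0.05. The spread of each gene was moderated toward that of other genes, with a median of 30.4 prior degrees of freedom. SE is the size of the log2 fold change divided by the square root of F, and intervals are 95%. What edgeR terms the biological coefficient of variation was 3.74%, here the spread between libraries of a group, which may not be separate cultures. Counting error adds to it and weighs most on genes with few counts, such as Itga4 at day 0 (285 and 439 counts). Replicates differed by more than sampling noise (chi-square per degree of freedom 3.77 to 6.64). The fit was also run on 1 set of simulated counts for 4-PBA against DMSO, with 50 genes changed at each fold. It called 39 at 1.25-fold, 40 at 1.5-fold, 47 at 2-fold and 50 at 4-fold, and made 18 false calls. Changes under 1.25-fold, such as those of Fn1, Itga6 and Itga7 between 4-PBA and DMSO, were not simulated.

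The members and lists were chosen with earlier results of these data known. Genes named beside the members were, per list, the 3 with the smallest adjusted p between 4-PBA and DMSO and the 3 largest called changes with DMSO at 5 CPM or more, and the 3 closest in profile to Fn1 and Itga7. Alternatives were DESeq2 1.42.0, limma 3.58.1 (voom), other scalings, filters and thresholds, a fit of 4 libraries, a replicate block, longest transcripts and leaving out each library. Figures used matplotlib 3.10.9.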

Additional observations from a re-analysis of the deposited data

How the results depend on the processing

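Over 16 alternatives and 3 comparisons, the 10 genes kept direction and call in 452 of 480 values; 20 lost a call, 1 gained one and 7 changed sign. For the 29 other genes named, 1321 of 1392 were unchanged, 54 lost a call, 7 gained one and 10 changed sign. Where a value moved, the cause was not tested unless the alternative itself sets it.

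A minimum change of 1.5-fold left 6099 genes called for DMSO against day 0, 59 for 4-PBA against DMSO and 5972 for 4-PBA against day 0. Among the 10 genes it left 5 higher and 1 lower in each comparison with day 0, and 0 in either direction between 4-PBA and DMSO. An adjusted p under 0.01 left 424 genes between 4-PBA and DMSO, and 1 of the 10 (Fn1) lower. Leaving out 1 library at a time gave 295 to 1194 calls between 4-PBA and DMSO, lowest without 4-PBA replicate 2 (295) and 4-PBA replicate 1 (341), where a lone library is assumed to vary like the others, and 1 to 3 of the 10 genes called lower. Without DMSO replicate 2 the 3 were Fn1, Itga7 and Itga5.

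Signs changed where values were near 0. For DMSO against day 0, Itgav was 0.0024 with no filter, 0.017 with the strict filter, 0.029 without day 0 replicate 2 (-0.030 without day 0 replicate 1), 0.017 when DMSO replicate 2 was left out and 0.0041 when 4-PBA replicate 1 was; against day 0 with 4-PBA it was 0.0087 without day 0 replicate 2 and -0.050 without day 0 replicate 1. Between 4-PBA and DMSO, Tln2 was 4.49e-05 with DESeq2 size factors, 0.0067 with library size only, 8.85e-05 with the DESeq2 Wald test, 0.028 when DMSO replicate 1 was left out, 0.011 when 4-PBA replicate 2 was and -0.033 when DMSO replicate 2 was. Leaving out DMSO replicate 1 gave -0.0035 for Itgb1, 0.024 for Plaur, 0.054 for Itgb7 and 0.20 for Ccn2. Leaving out DMSO replicate 2 gave 0.039, -0.20, -0.041 and -0.093 for these, and -0.022 for Fbn1. Itgb7 was -0.014 without 4-PBA replicate 2.

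Replicate numbers did not pair the libraries: deviations of same-numbered libraries correlated at 0.046, -0.085 and -0.088 between groups. With the replicate block, 768 genes were called between 4-PBA and DMSO in place of 855, and the 10 genes kept their calls.

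Per length of the longest transcript, shares at day 0, with DMSO and with 4-PBA were 9.85%, 2.21% and 2.48% for Itga3, 0.164%, 0.402% and 0.382% for Itga4, 17.9%, 11.3% and 11.4% for Itga5, 6.74%, 3.92% and 3.82% for Itga6, 56.2%, 76.5% and 75.9% for Itga7, and 8.47%, 4.09% and 4.29% for Itgav. Itgb3 was 4.73% at day 0 and 2.56% with 4-PBA, and with 4-PBA Itgb1 was 77.7% and Itgb5 18.2%.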
